A study of Sus scrofa with 8 samples.

Results

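Melanocytes are the pigment cells of skin and hair, and 8 genes that mark them were followed through limb muscle of pig embryos. The genes were PMEL and MLANA, which encode structural proteins of the pigment organelle, TYR, TYRP1 and DCT, which encode the enzymes that make melanin, MITF, the transcription factor of the lineage, and KIT and EDNRB, the receptors that guide and sustain the precursor cells. They were chosen by name, and all 8 were found among the 22516 genes of the count table. All 8 also passed the filter on low counts that left 17020 genes for testing. TYR and MLANA passed it on the strength of 4 libraries alone, namely wild-type E41 replicate 2, both knockout E41 libraries and knockout E62 replicate 1.

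Melanocytes arise from the neural crest. Their precursors travel under the surface ectoderm or along growing nerves and settle in the epidermis and hair follicles, so a dissected limb brings them in with any attached skin. MITF, switched on by SOX10 and PAX3, turns on the genes for melanin synthesis. KIT answers to KITLG, made by skin cells, and EDNRB answers to endothelins, and mutations of either receptor pathway leave unpigmented skin. In pigs, structural changes at KIT underlie the dominant white coat. DCT and PMEL come on early in precursors, while TYR marks cells close to making pigment. Several of the genes are also active elsewhere, MITF in osteoclasts and mast cells, KIT in mast cells and EDNRB in endothelium and glia.

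The 8 libraries came from 4 groups of 2: wild-type (WT) embryos and embryos with a knockout (KO) of MYF5, MYOD and MYF6, the factors that set up skeletal muscle, each on embryonic days 41 (E41) and 62 (E62). The sample titles name a knockout while the series title names a knockdown, and day 60 stands for E62 in the growth protocol. Titles call the replicates biological, and the KO E62 library names hold the embryo tags Emb1 and Emb4. Otherwise no source used here gives the animals, their breed and coat colour, or the way the knockout was made. The p-values thus measure only the spread between these libraries. The number in the library names is shared within each group and differs between groups, and only WT E41 names hold the limb code LHL. A litter or preparation, and for WT E41 the limb, thus cannot be told apart from the group. KO E62 names alone lack the ending L001, and whether that group was handled apart is not stated. Levels are in CPM, a count set against its library's total after TMM scaling. CPM is not corrected for gene length, so levels are compared between libraries and never between genes. Changes are on the log2 scale, as estimate ± standard error from edgeR's quasi-likelihood fit, and levels as mean ± SD where so marked, n = 2 libraries per group, and a gene is said to have risen or fallen where its Benjamini-Hochberg adjusted p was under 0.05.

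Totals ran from 23402052 to 60539245 counts per library. MYF5 and MYF6 had 0 counts in all 4 knockout libraries and MYOD1 had 20 to 88 counts there, against 1503 to 5715 in wild type, and 7 of 7 skeletal muscle genes fell at both stages, so the labelled tissue kept almost none of its muscle transcripts in the knockout. Skin content differed between libraries. The summed level of 18 keratinocyte genes, such as KRT15 and DSP, was 1025 and 1770 CPM in WT E41, 2259 and 1305 CPM in KO E41, 38.0 and 42.4 CPM in WT E62, and 1614 and 64.4 CPM in KO E62. At E62, therefore, replicate 1 of the knockout was a skin-rich library and replicate 2 a skin-poor one, and both wild-type libraries were skin-poor. The knockout effects at E62 on the melanocyte genes are therefore also given without each KO E62 library. Other results that rest on KO E62 are given in this way only in part. Where such a value stands alone, the text does not show how far it rests on the skin-rich library.

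At E41 3 of the 8 genes rose in the knockout, TYRP1, MITF and EDNRB, where 39.2% of all genes tested were called, 18.5% higher and 20.8% lower. At E62 2 of the 8 rose, DCT and MITF, where 47.2% of all genes were called, 21% higher and 26.2% lower. None of the 8 fell at either stage. Without the skin-rich KO E62 replicate 1 the count at E62 was 1 (DCT), and without the skin-poor replicate 2 it was 4 (PMEL, TYR, DCT and MLANA), with 6798 and 6694 calls over all genes against 8028. Each of these fits has a single KO E62 library and takes its spread from the other groups, so leaving out replicate 2 also takes the wide spread of that group out of the test. The fitted log2 change was above 0 for 8 of 8 at both stages, with a median of 0.86 at E41 and 1.70 at E62, against 0.089 and 0.060 over all genes. The E62 median rests in part on the skin-rich KO E62 replicate 1. Without that library the change was smaller for PMEL, TYR, TYRP1, DCT and MITF and larger for KIT and EDNRB, as given below. TYR and MLANA had 2 and 0 counts in the WT E62 group, so their fitted values at E62 are unsteady. The libraries of the 2 genotypes did not overlap for 5 of the 8 genes at E41 and 6 at E62, all higher in the knockout, against 40.1% of all genes higher without overlap at each stage (and 33.3% at E41 and 37.3% at E62 lower without overlap). At E62 MLANA is among the 6 through 1 count in KO E62 replicate 2 against 0 in both wild-type libraries. In bulk tissue, fewer cells of a type and less RNA per cell cannot be told apart, which holds for all values that follow. The 7 skeletal muscle genes summed to 10526 and 9626 CPM in WT E41 and to 29.0 and 25.2 in KO E41. In E62 they summed to 20672 and 25789 CPM in wild type and to 14.6 and 12.6 in the knockout. Other tissue may hold a larger share of the knockout counts, and how far this enters the changes of the 8 genes was not tested.

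**Figure D1:**
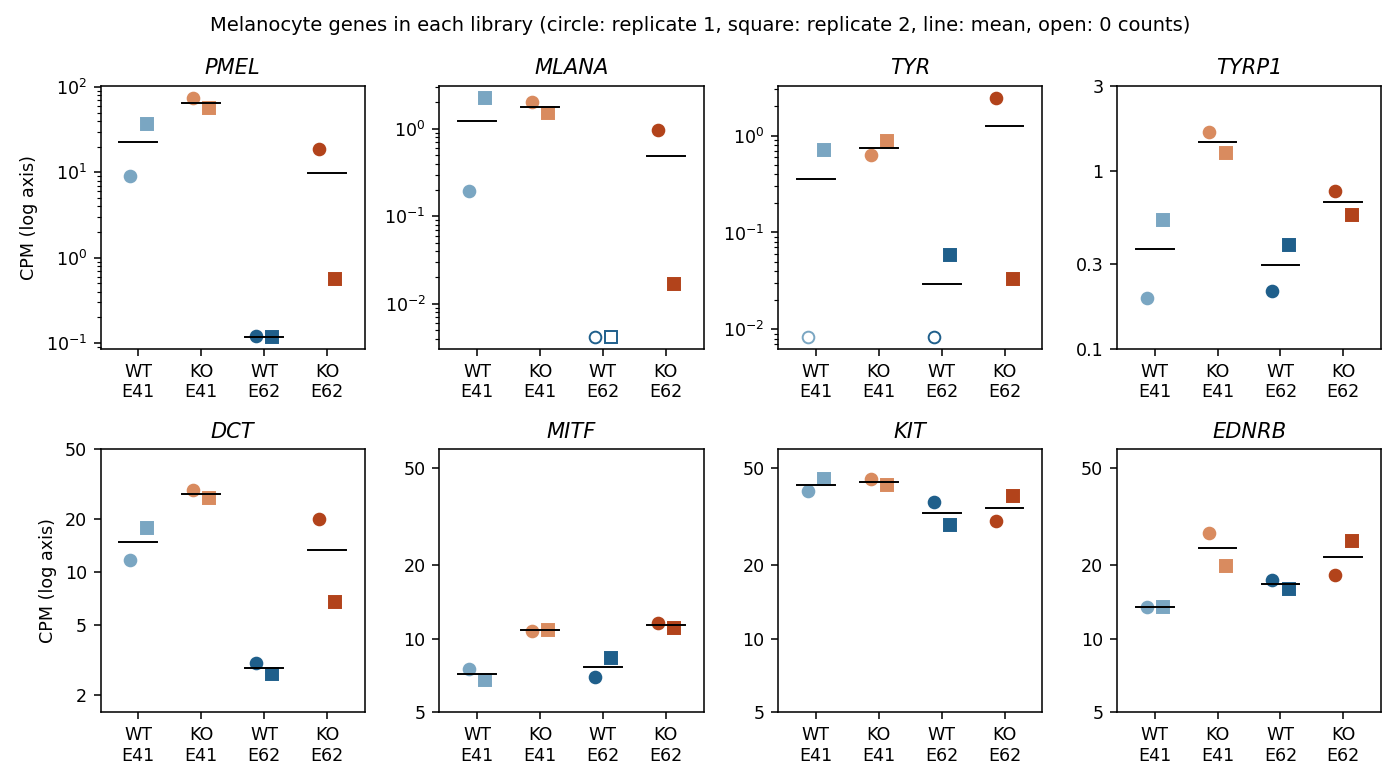
Level of each melanocyte gene in CPM (log axis, own scale per gene) in the 8 libraries, by group. Circles are replicate 1, squares replicate 2, lines group means and open symbols 0 counts. The 2 KO E62 libraries lie far apart for PMEL, MLANA and TYR and close together for MITF, KIT and EDNRB.

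PMEL (ENSSSCG00000000371) forms the fibrils on which melanin is laid down. In the RefSeq annotation of Sscrofa11.1 it lies on chromosome 5 from 21355611 to 21365609 and overlaps DGKA, and without a stated strand the reads of overlapping genes cannot be told apart. It stood at 9.13 and 36.5 CPM in WT E41 and at 74.7 and 56.5 CPM in KO E41. In WT E62 it was at 0.120 and 0.118 CPM, which is 4 counts in each library, and in KO E62 at 18.9 and 0.567 CPM. Its mean level fell in the order KO E41 (65.6 ± 12.9 CPM, SD), WT E41 (22.8 ± 19.3), KO E62 (9.74 ± 13) and WT E62 (0.119 ± 0.0018). The WT E41 and KO E62 libraries overlapped in that order, and the others did not.

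Knockout libraries held more PMEL than wild type at both stages without overlap, yet neither difference passed the test. The log2 change was 1.52 ± 1.45 at E41 (adjusted p = 0.46) and 6.32 ± 2.46 at E62 (adjusted p = 0.095). The 2 KO E62 libraries differed 33.3-fold from each other. Without the skin-poor replicate 2 the change at E62 was 7.27 ± 1.20 (adjusted p = 0.011), and without the skin-rich replicate 1 it was 2.22 ± 1.79 (adjusted p = 0.39). DESeq2 called it at E62 (log2 change 6.38, adjusted p = 0.00017).

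MLANA (ENSSSCG00000005206, chromosome 1 from 216230472 to 216247171), a small membrane protein that helps PMEL mature, had 4 and 51 counts in WT E41 (0.193 and 2.26 CPM) and 94 and 70 counts in KO E41 (2.02 and 1.52 CPM). It had 0 counts in both WT E62 libraries, where 3 counts would be 0.0902 and 0.0883 CPM, and 65 and 1 counts in KO E62 (0.959 and 0.0167 CPM). The genotypes overlapped at E41 (log2 change 0.52 ± 1.55, adjusted p = 0.82). At E62 MLANA was at least 11.6-fold higher in the knockout against a floor of 3 counts over the wild-type group. That difference did not pass the test (adjusted p = 0.15), and without KO E62 replicate 2 it did (adjusted p = 0.040). DESeq2 also called it (adjusted p = 0.0041). All but 1 of the 66 knockout counts came from replicate 1, so without that library it was 1 count against 0.

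TYR (ENSSSCG00000026409), the enzyme of the rate-limiting step of melanin synthesis, lies on chromosome 9 from 22517047 to 22604290 and overlaps LOC110255412. It had 0 and 16 counts in WT E41 and 29 and 40 in KO E41, which is up to 0.708 CPM and 0.869 CPM, with 3 counts worth 0.145 CPM in the library at 0. In E62 it had 0 and 2 counts in wild type and 166 and 2 in the knockout. The 166 counts, 2.45 CPM, were the highest TYR level of the 8 libraries, and KO E62 replicate 2 was at 0.0334 CPM. At E41 the log2 change was 1.04 ± 1.85 (adjusted p = 0.69). At E62 the knockout held 44.2 times the wild-type level (168 against 2 counts, interval 12.0 to 368). That ratio's interval covers counting error only, the groups overlapped, and the fit gave an adjusted p of 0.12. TYR passed the test at E62 without KO E62 replicate 2 (adjusted p = 0.019) and with DESeq2 (adjusted p = 0.016), and without replicate 1 the change was 0.15 ± 2.38.

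TYRP1 (ENSSSCG00000005193, chromosome 1 from 209725698 to 209745141, 6.49 Mb from MLANA) stabilises TYR and acts late in melanin synthesis. It was at 0.193 and 0.531 CPM in WT E41 and at 1.66 and 1.26 CPM in KO E41. In E62 it was at 0.211 and 0.383 CPM in wild type and at 0.767 and 0.567 CPM in the knockout. TYRP1 rose 3.97-fold in the knockout at E41, a difference of 1.99 ± 0.59 on the log2 scale (adjusted p = 0.031). At E62 the change was 1.16 ± 0.58 without overlap (adjusted p = 0.13), and 0.92 ± 0.71 and 1.36 ± 0.69 without KO E62 replicate 1 or 2. Its KO E62 libraries lay within 1.35-fold of each other, unlike those of PMEL, MLANA and TYR. The counts were low, 4 to 77 per library, and the call at E41 was lost without WT E41 replicate 1 (adjusted p = 0.10), KO E41 replicate 1 (0.15) or KO E41 replicate 2 (0.082).

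DCT (ENSSSCG00000009490, chromosome 11 from 63584865 to 63647486), also called TYRP2, converts dopachrome and is an early marker of melanoblasts. It stood at 11.7 and 17.9 CPM in WT E41 and at 29.4 and 26.4 CPM in KO E41. In E62 it stood at 3.07 and 2.65 CPM in wild type and at 20.1 and 6.79 CPM in the knockout. Both knockout libraries were above both wild-type libraries at each stage. At E41 the log2 change was 0.91 ± 0.49 (adjusted p = 0.19), and with only the E41 groups in the fit it passed (0.87, adjusted p = 0.017). DCT passed at E41 also without KO E62 replicate 1 (adjusted p = 0.010) or replicate 2 (0.0099), the libraries whose spread the shared fit takes in.

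At E62 DCT rose 4.70-fold in the knockout, a log2 change of 2.23 ± 0.53 (adjusted p = 0.016). It was the sole pigment gene to pass there. Without the skin-rich replicate 1 the change was 1.24 ± 0.26 (adjusted p = 0.0076), and without the skin-poor replicate 2 it was 2.81 ± 0.25 (adjusted p = 0.00015). The call was lost with limma-voom (adjusted p = 0.064) and without WT E62 replicate 1 (0.086) or replicate 2 (0.095).

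**Figure D2:**
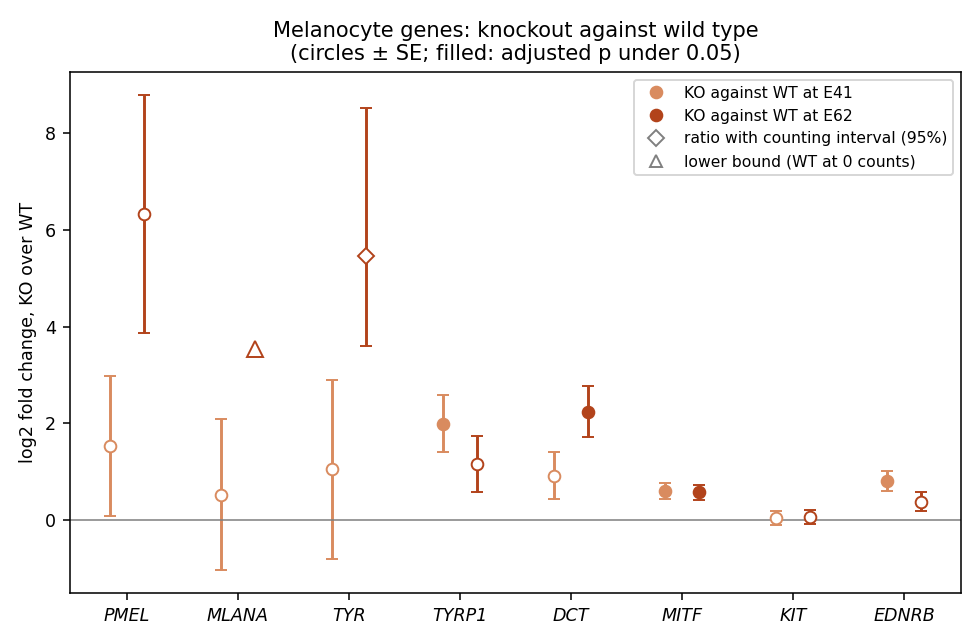
Log2 fold change of each melanocyte gene, knockout over wild type, at E41 and E62. Circles have SE bars and are filled where the adjusted p was under 0.05, diamonds are ratios with a 95% counting interval and triangles lower bounds. The wide bars of PMEL and TYR at E62 stand beside narrow ones for MITF, KIT and EDNRB.

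The summed level of the 5 pigment genes (PMEL, MLANA, TYR, TYRP1 and DCT) followed the skin content of the libraries. It was 21.3 and 57.9 CPM in WT E41, 108.5 and 86.6 CPM in KO E41, 3.40 and 3.21 CPM in WT E62, and 43.2 and 7.98 CPM in KO E62. The 3 skin-poor libraries were the 3 with the least pigment transcript. In 3 of the 4 groups the levels moved together within the group as well. In WT E41, replicate 2 had the higher level for 17 of 18 keratinocyte and 5 of 5 pigment genes. In KO E41, replicate 1 was higher for 18 of 18 and 4 of 5, and in KO E62, replicate 1 was higher for 18 of 18 and 5 of 5. In WT E62 they did not: keratinocyte genes split 11 and 7 between the replicates, pigment genes 2 and 2, and the sums ran in opposite directions. The summed keratinocyte level differed 25.0-fold between the KO E62 libraries and the summed pigment level 5.41-fold.

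**Figure D3:**
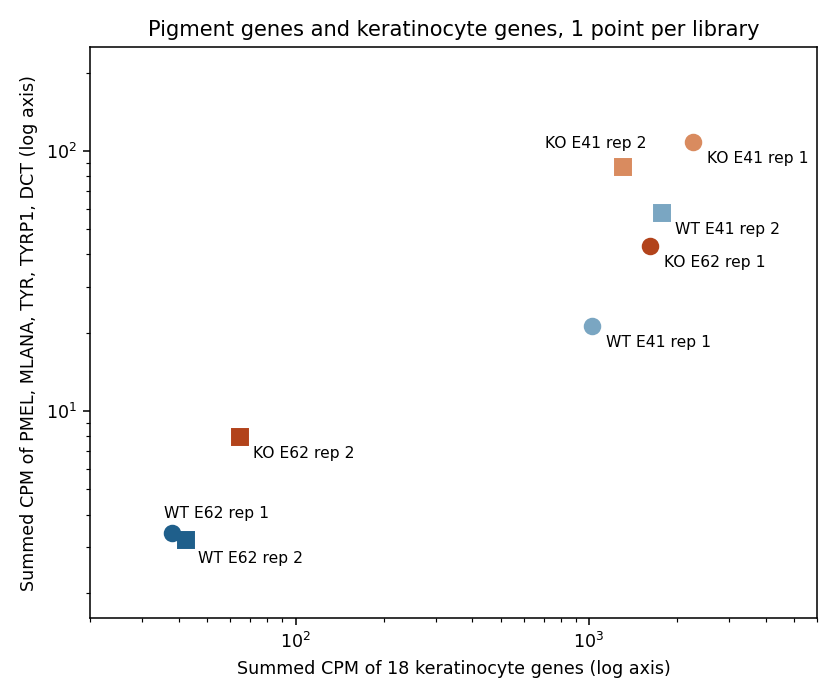
Summed CPM of PMEL, MLANA, TYR, TYRP1 and DCT against the summed CPM of 18 keratinocyte genes, 1 point per library, both axes logarithmic. KO E62 replicate 2 lies beside the WT E62 libraries at under 100 CPM of keratinocyte transcript, and KO E62 replicate 1 lies among the E41 libraries.

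At E41 the summed pigment level was higher in the knockout also relative to skin, though not for every gene. Per 1000 CPM of keratinocyte genes their summed level was 20.7 and 32.7 CPM in WT E41 and 48.0 and 66.4 CPM in KO E41, without overlap. The keratinocyte genes themselves were above 0 for 15 of 18 (median 0.43, 0.986 with WT E41 replicate 2 left out and 0.014 with replicate 1 left out), with 0 called by edgeR, DESeq2 or limma-voom and 0 at an unadjusted p under 0.05. TYRP1 was at 0.188 and 0.30 per 1000 in wild type and 0.734 and 0.965 in the knockout. PMEL stood at 8.91 and 20.6 per 1000 in wild type and at 33.1 and 43.3 in the knockout. DCT did not overlap either (11.4 and 10.1 against 13 and 20.3), while MLANA (0.188 and 1.27 against 0.896 and 1.17) and TYR (0 and 0.40 against 0.276 and 0.666) did. With the log2 keratinocyte level as a covariate, a fit chosen after the values were seen, 5 genes rose at E41. PMEL (1.33 ± 0.37, adjusted p = 0.037) and DCT (0.81 ± 0.16, adjusted p = 0.0057) joined TYRP1, MITF and EDNRB. The share of all genes called with this covariate is not given here at E41 or E62, so the count has no background. Other lists gained calls in that fit too. Of 13 lineage factors 8 rose and of 11 endothelial genes 8, against 5 and 4 without the covariate. The counts of melanosome genes (3) and mast cell genes (2) that rose did not move.

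At E62 the ratio of pigment to keratinocyte transcript overlapped between the genotypes with DCT in the sum and not without it. With DCT it was 89.4 and 75.7 CPM per 1000 in wild type and 26.8 and 124 in the knockout. Without DCT it was 8.70 and 13.2 in wild type and 14.3 and 18.4 in the knockout. The wild-type sum behind it was 0.331 and 0.560 CPM, with PMEL at 4 and 4 counts, TYRP1 at 7 and 13 and TYR at 0 and 2. With so few counts the gap between 13.2 and 14.3 cannot be told from counting error, and it was not tested. DCT stood at 62.5 to 105 CPM per 1000 in the 3 skin-poor libraries and at 10.1 to 20.3 in the 5 skin-rich ones. TYRP1 stood at 5.54 to 9.03 and 0.188 to 0.965. PMEL did the opposite in WT E62, with 3.16 and 2.78 per 1000, the lowest of the 8 libraries, against 11.7 and 8.80 in KO E62. In the skin-poor libraries these ratios divide by 38.0 to 64.4 CPM of keratinocyte genes, so a gene with a steady level in CPM also stands high. The cells that hold the DCT and TYRP1 transcripts there were not tested. With the keratinocyte covariate DCT alone rose at E62 (1.00 ± 0.22, adjusted p = 0.010), PMEL was at 1.36 ± 1.11 (adjusted p = 0.39) and TYR turned to -0.69 ± 2.63.

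**Figure D4:**
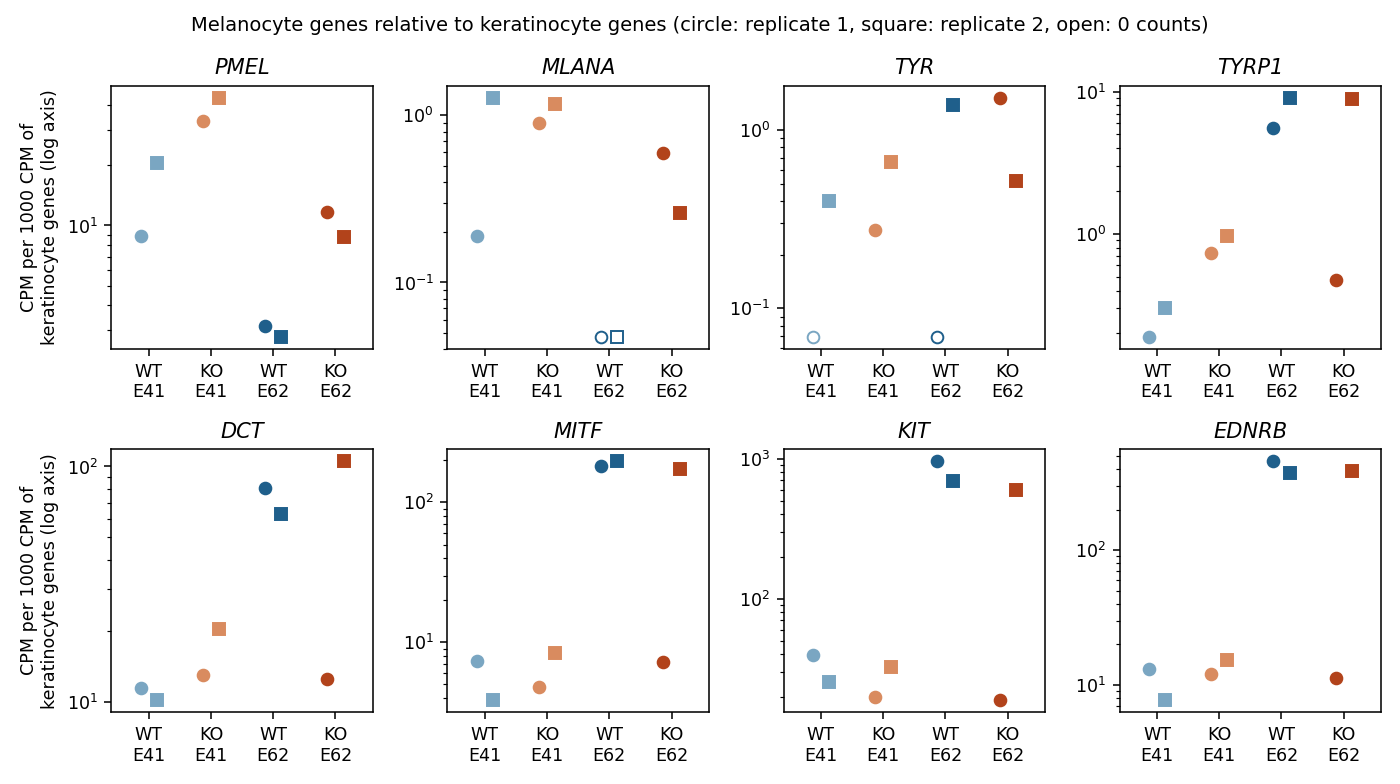
Level of each melanocyte gene per 1000 CPM of keratinocyte genes (log axis, own scale per gene) in the 8 libraries, by group. Circles are replicate 1, squares replicate 2 and open symbols 0 counts. MITF, KIT, EDNRB, DCT and TYRP1 are high in the 3 skin-poor E62 libraries, and PMEL is not. The ratio there divides by 38.0, 42.4 and 64.4 CPM of keratinocyte genes, so a gene with a steady level in CPM also stands high. PMEL had 4 counts in each WT E62 library.

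MITF (ENSSSCG00000011514, chromosome 13 from 51177356 to 51422096) rose by about the same amount in the knockout at both stages. It stood at 7.54 and 6.81 CPM in WT E41 and at 10.8 and 10.9 CPM in KO E41. In E62 it stood at 6.95 and 8.36 CPM in wild type and at 11.6 and 11.1 CPM in the knockout. The rise was 1.51-fold at E41 (log2 change 0.60 ± 0.16, adjusted p = 0.021) and 1.48-fold at E62 (0.57 ± 0.16, adjusted p = 0.019), and all 4 knockout libraries were above all 4 wild-type ones. The skin-rich and the skin-poor KO E62 libraries differed 1.05-fold, so the MITF level did not follow the keratinocyte genes there.

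The MITF change was above 0 in every setting, while its size moved and the call was fragile. Over the settings it ran from 0.54 to 0.886 at E41 and from 0.438 to 0.876 at E62. Set against library size alone, MITF stood at 6.67 and 6.10 CPM in WT E41 and at 11.8 and 11.8 CPM in KO E41. At E41 the call was lost without WT E41 replicate 2 (0.54, adjusted p = 0.080), KO E41 replicate 1 (0.60, adjusted p = 0.095) or KO E41 replicate 2 (0.59, adjusted p = 0.0998). At E62 it was lost without WT E62 replicate 1 (0.44, adjusted p = 0.12), KO E62 replicate 1 (0.53, adjusted p = 0.077) or KO E62 replicate 2 (0.60, adjusted p = 0.0503), and with the keratinocyte covariate (0.54, adjusted p = 0.094). Some markers of osteoclasts, macrophages and mast cells rose as well. Of 10 tested osteoclast and macrophage genes, 3 rose at E41 (8 without WT E41 replicate 1, 1 without KO E41 replicate 1) and 10 at E62 (7 to 10 over the libraries left out), against 18.5% and 21% of all genes, and the list's sum was 161 to 295 CPM in WT E41, 310 to 326 in KO E41, 234 to 259 in WT E62 and 803 to 849 in KO E62. OCSTAMP, which marks fused osteoclasts, had 0 counts in all libraries but KO E41 replicate 1, and DCSTAMP had 0 in 5 of the 8. Of 7 mast cell genes, 2 rose at E41 (0 with limma-voom, without either WT E41 library or without KO E41 replicate 1) and 4 at E62 (2 without either WT E62 library), with sums of 11.1 to 12.7, 16.6 to 17.2, 13.8 to 15.4 and 19.4 to 31.5 CPM in the same order of groups. The part of these cells in the MITF level was not tested.

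KIT (ENSSSCG00000008842, chromosome 8 from 41402334 to 41492306) showed the least difference between genotypes. It was at 40.4 and 45.3 CPM in WT E41 and at 45.3 and 42.7 CPM in KO E41. In E62 it was at 36.5 and 29.4 CPM in wild type and at 30.4 and 38.4 CPM in the knockout. The genotypes overlapped at both stages, with log2 changes of 0.04 ± 0.15 (adjusted p = 0.87) and 0.06 ± 0.15 (adjusted p = 0.75). These changes lie below the median of all genes at E41 and near it at E62, and their sign was not stable: with library size alone KIT was at 0.33 and 0.37, and it turned below 0 at E41 with only the E41 groups in the fit (-0.0053). At E62 it was at 0.21 without KO E62 replicate 1 and at -0.12 without replicate 2. KIT marks mast cells too. Of 7 mast cell genes 2 rose and 0 fell at E41, and 4 rose and 0 fell at E62. Of all genes, 18.5% rose and 20.8% fell at E41, and 21% and 26.2% at E62. MS4A2, a chain of the IgE receptor, and GATA2, a mast cell factor, rose at both stages, while FCER1A, another chain of that receptor, was at -1.90 at E41 and 2.22 at E62 without a call.

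EDNRB (ENSSSCG00000009477, chromosome 11 from 50073300 to 50102879, 13.5 Mb from DCT) rose in the knockout at E41. It was at 13.5 and 13.5 CPM in WT E41 and at 27.3 and 19.8 CPM in KO E41, a rise of 1.74-fold (log2 change 0.80 ± 0.20, adjusted p = 0.015). In E62 it was at 17.5 and 16.0 CPM in wild type and at 18.2 and 25.1 CPM in the knockout, without overlap (0.37 ± 0.20, adjusted p = 0.15). At E62 the skin-poor replicate 2 was the higher knockout library, opposite to the pigment genes, and the change was 0.58 ± 0.20 (adjusted p = 0.0504) without replicate 1 and 0.12 ± 0.20 without replicate 2. The E41 call was lost with limma-voom (adjusted p = 0.056), and without WT E41 replicate 1 (0.065) or 2 (0.070) or KO E41 replicate 1 (0.10). Of 11 endothelial genes 4 rose at E41 (2 without WT E41 replicate 2 or KO E41 replicate 1, 8 without either KO E62 library) and 5 at E62, against 18.5% and 21% of all genes, and their sum was 725 to 887 CPM in WT E41, 1043 to 1162 in KO E41, 935 to 961 in WT E62 and 1086 to 1746 in KO E62. At E62 9 of them rose without KO E62 replicate 1, without replicate 2 it was 2 up and 1 down, and without WT E62 replicate 1 or 2 it was 1 and 2 up. Without either KO E41 library it was 2 up. None of the 11 was at 0 in any library, and their part in the EDNRB level was not tested.

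The knockout effect on the 8 genes was not shown to differ between the stages. The test of the difference called 0 of 8 (edgeR, DESeq2 and limma-voom), 0 had an unadjusted p under 0.05 in edgeR, and 26.8% of all genes were called. The differences, E62 effect minus E41 effect, ran from -0.83 ± 0.83 for TYRP1 to 4.80 ± 3.07 for PMEL among the genes with more than 3 counts in each group. Without KO E62 replicate 2 the difference for DCT passed (1.90, adjusted p = 0.0062).

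Between E41 and E62 in wild type, DCT fell 5.19-fold (log2 change -2.37 ± 0.54, adjusted p = 0.017), the sole gene of the 8 to pass, where 39.8% of all genes were called, 20% lower and 19.8% higher. PMEL was at -7.55 ± 2.43 (adjusted p = 0.067) with both E62 libraries below both E41 ones. Of the 8 genes, 5 did not overlap between the stages, 4 lower and 1 higher at E62, against 34.3% and 36.5% of all genes. MLANA was at least 28.5-fold lower at E62 (55 against 0 counts, adjusted p = 0.096), and the ratio for TYR was 12.4 in the same direction (16 against 2 counts, interval 2.92 to 111, adjusted p = 0.34). MITF (0.09 ± 0.16) and EDNRB (0.31 ± 0.20) were not called and KIT was at -0.38 ± 0.15 (adjusted p = 0.075). The keratinocyte sum fell from over 1000 to about 40 CPM between the same groups. Of its 18 genes, 6 fell (1 with limma-voom, 16 with DESeq2 and 18 with only the groups compared), and that count moved with the libraries kept as well. With that sum as a covariate DCT was at -0.62 (adjusted p = 0.25). In wild type the covariate was high in both E41 libraries and low in both E62 libraries, so this fit can hardly separate it from the stage. Calls over all genes also dropped with it, as given at the end. The DCT call was also lost without WT E41 replicate 2 (adjusted p = 0.079), WT E62 replicate 1 (0.087) or WT E62 replicate 2 (0.11), and with limma-voom (0.068).

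Between E41 and E62 in the knockout, none of the 8 genes passed, where 30.1% of all genes were called, 12.1% higher and 18% lower. KIT had an unadjusted p under 0.05 (-0.36 ± 0.15, adjusted p = 0.10), DESeq2 called DCT and limma-voom called PMEL and DCT. PMEL was at -2.75 ± 1.5, DCT at -1.05 ± 0.49 and TYRP1 at -1.12 ± 0.53, all with both E62 libraries below both E41 ones. Of the 8 genes, 6 did not overlap between the stages, 5 lower and 1 (MITF) higher at E62, against 40.6% of all genes lower and 34.7% higher without overlap. Without the skin-rich KO E62 replicate 1, PMEL was at -6.85 (adjusted p = 0.023) and DCT at -2.05 (adjusted p = 0.0030). MITF (0.07 ± 0.16) and EDNRB (-0.12 ± 0.19) stayed within 1.1-fold.

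Of the factors that act with MITF in the lineage, more rose than fell in the knockout. Of 13 tested, 5 rose and 0 fell at E41, SOX10, FOXD3, SNAI2, SOX5 and TFEB, with a median log2 change of 1.11, where 18.5% of all genes were higher and 20.8% lower. The count was 3 without WT E41 replicate 2 or either KO E41 library. At E62 6 rose and 2 fell, with a median of 1.06 (4 and 2 without KO E62 replicate 1, 7 and 2 without replicate 2, and 3 and 2 without either WT E62 library), against 21% and 26.2% of all genes. SOX10, which switches on MITF in neural crest cells and also marks Schwann cells, stood at 7.49 and 14.2 CPM in WT E41 and at 29.8 and 18.6 CPM in KO E41 (1.16 ± 0.32, adjusted p = 0.027). In E62 it stood at 8.0 and 8.72 CPM in wild type and at 5.09 and 5.22 CPM in the knockout (-0.70 ± 0.32, adjusted p = 0.12). At E62 SOX10 and MITF thus lay on opposite sides of 0. FOXD3, which holds neural crest cells back from the melanocyte fate, rose at E41 (1.11 ± 0.35) and fell at E62 (-3.91 ± 0.37), and TFEB, a relative of MITF that drives lysosome genes, did likewise (1.14 ± 0.29 and -1.41 ± 0.27). SNAI2 rose at both stages (0.69 ± 0.12 and 0.54 ± 0.12). LEF1, a Wnt partner that is also a hair follicle gene, rose at E62 (4.29 ± 0.68), as did IRF4 (4.74 ± 0.64), which activates TYR in melanocytes and is also an immune cell factor.

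Of 15 genes of the Schwann cell, a relative of the melanocyte that shares its precursor, 4 rose and 2 fell at E41, and 5 rose and 3 fell at E62, where 18.5% and 20.8% and then 21% and 26.2% of all genes did. At E41 1 rose without WT E41 replicate 1 or KO E41 replicate 1 and 2 without WT E41 replicate 2, and at E62 3 rose without WT E62 replicate 1 or KO E62 replicate 2 and 2 without WT E62 replicate 2. The median log2 change was 0.61 at E41, with 10 of 15 above 0, and 0.05 at E62, while the sum, which the most abundant genes set, was lower in the knockout. It was 674 to 689 CPM in WT E41, 413 to 530 in KO E41, 735 to 739 in WT E62 and 238 to 299 in KO E62, and 1 gene was at 0 in KO E62 replicate 2. SOX10, FOXD3 and ERBB3 stand on this list and on those of the melanocyte. The part of Schwann cells in the SOX10 and EDNRB levels was not tested.

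Genes that build and move melanosomes were called in both directions, at E41 about as often as genes in general. Of 19, 3 rose and 3 fell at E41 and 6 rose and 5 fell at E62, with medians of 0.16 and 0.14, against 18.5% higher and 20.8% lower of all genes at E41 and 21% and 26.2% at E62. At E62 that median was below 0 with limma-voom (-0.02) and without KO E62 replicate 1 (-0.05), and without replicate 2 the count was 9 up and 5 down. RAB27A, which ties melanosomes to the actin motor and also serves secretion in immune cells, rose at both stages (1.20 ± 0.17 and 1.99 ± 0.18). MYO5A, the motor itself, rose at E62 (1.13 ± 0.13). OCA2, an ion channel of the melanosome, stood at 8.85 to 16.5 CPM in WT E41, 2.52 to 3.21 in KO E41, 15.9 to 20.5 in WT E62 and 0.734 to 1.40 in KO E62, and fell at both stages (-2.14 ± 0.39 and -4.08 ± 0.42). Its group mean was highest in WT E62, where the group means of PMEL, MLANA and TYR were lowest, though its WT E62 and WT E41 libraries overlapped. SYTL2, a RAB27A partner active in many tissues, also fell at both stages (-2.46 ± 0.11 and -2.89 ± 0.12). TSPAN10 rose at E41 (1.59 ± 0.20).

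Among signals and receptors, 4 genes rose and 3 fell of 13 tested at E41, and 3 rose and 3 fell at E62, where 18.5% and 20.8% and then 21% and 26.2% of all genes did. At E41 2 rose without WT E41 replicate 2 or KO E41 replicate 1 and 7 without either KO E62 library. Medians were 0.54 and 0.25, the latter -0.07 with MC1R at its count bound. KITLG, the ligand of KIT, stood at 21.8 and 20.4 CPM in WT E41 and at 40.2 and 36.2 CPM in KO E41, a rise of 0.86 ± 0.16 (adjusted p = 0.0044). At E62 it was at 25.4 and 31.6 CPM in wild type and 33.2 and 43.2 CPM in the knockout (0.42 ± 0.16, adjusted p = 0.057). Of the endothelin genes, EDNRA, the receptor of vessels and mesenchyme, rose at both stages (0.71 ± 0.14 and 0.68 ± 0.14). ECE1, which cuts the ligands to their active form, rose at E41 (0.54 ± 0.15), and EDN1 rose at E62 (1.94 ± 0.43). ERBB3, the neuregulin receptor of neural crest and Schwann cells, fell at both stages (-2.64 ± 0.24 and -4.65 ± 0.27), and so did ADAMTS20 (-1.19 ± 0.09 and -3.99 ± 0.10), a protease needed for melanoblast survival. HGF rose at E41 (0.94 ± 0.23) and fell at E62 (-1.49 ± 0.23), and FZD4 fell at E41 (-0.99 ± 0.16). MC1R, the melanocortin receptor of melanocytes, had 16 and 13 counts in KO E41, 4 and 0 in KO E62 and 0 in all 4 wild-type libraries. At E41 it was at least 4.53-fold higher in the knockout by counting, but was not among the 4 genes that passed as higher. At E62 the same bound was 0.70, which shows no rise.

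Across the 8 libraries, the genes whose pattern lay closest to the mean of the 5 pigment genes, by Pearson's r of log2(CPM + 0.5) over 12583 genes, were LSR (r = 0.992), IRX4 (0.992), MST1R (0.991), KDF1 (0.990) and TFAP2B (0.988). Keratinocyte genes had a median r of 0.919 with that mean, and 6 of the 18 were among the 100 closest genes. MITF, KIT and EDNRB had an r of 0.412, 0.523 and 0.19 with it. MITF lay closest to COL16A1 (0.993) and ZNF821 (0.991), then TLR5, ZNF555 and LURAP1. Its median r was -0.945 with skeletal muscle genes and 0.227 with keratinocyte genes. With osteoclast and macrophage genes it was 0.767, with endothelial genes 0.704 and with the 4 mast cell genes compared 0.578. KIT lay closest to SALL2 (0.986), SORCS1, NGFR, CSK and PRKAR1B. Its median r with the 4 mast cell genes compared was -0.29, from -0.387 to 0.779. EDNRB lay closest to CYTH1 (0.963), SLC35E2B, ENG, TST and CEBPB, and 4 of 11 endothelial genes were among its 100 closest. The 8 points share 4 groups and their library depths, so these values describe the libraries alone.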

How the data were processed

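Members and gene lists were chosen with earlier results of these data known. The authors deposited 1 table of estimated counts per gene (expected counts, whole numbers) with no normalization. Kallisto, DESeq2, Sscrofa11.1 and susScr11 stand in the submitters' processing notes without role or version. Per the labels' protocols, RNA was extracted with a Qiagen kit and libraries made with a TruSeq RNA or Stranded mRNA kit. The strand setting of the counting is not stated there. Reads that fit several transcripts are divided among them in such estimates.

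Symbols were found for 15527 of 22516 identifiers (69%). Counts were rounded and filtered with filterByExpr (minimum count 10). After TMM scaling, edgeR 4.0.16 under R 4.3.3 fitted all 8 libraries together, with a mean for each group and 4 residual degrees of freedom. The quasi-likelihood F test was two-sided, with Benjamini-Hochberg adjustment over 17020 genes. A group at 0 was set to 3 counts for the whole group. Groups with 1 to 3 counts have a ratio with a 95% Clopper-Pearson interval. Floors and intervals cover counting error only. All 8 genes are named. From each other list up to 5 genes with the smallest p could be named, and SOX10, SOX5, OCSTAMP, DCSTAMP, EDNRA, ECE1, EDN1 and MC1R were added after their values were seen. Alternatives were DESeq2 1.42.0, limma-voom (limma 3.58.1), relative log expression scaling, library size alone, no low-count filter, thinned counts, a replicate block, only the groups compared, each library left out (a lone library of a group is then assumed to vary like the other groups), and a keratinocyte covariate. Steps were tested on simulated data.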

Additional observations from a re-analysis of the deposited data

Results flagged for a closer look

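None of the 8 melanocyte genes had a knockout effect that differed between the stages by edgeR's test of the difference, where 26.8% of all genes did. It did for 9 of 19 melanosome genes, 5 of 13 lineage factors, 5 of 13 signals and receptors, 8 of 15 Schwann cell genes and 2 of 18 keratinocyte genes. The values below are those of the genes named in the text. They are the E62 effect minus the E41 effect on the log2 scale. Of the melanosome genes, the difference was -1.94 for OCA2 (adjusted p = 0.037), 0.79 for RAB27A (0.049), 1.25 for MYO5A (0.0032) and -1.64 for TSPAN10 (0.0049). Of the lineage factors, it was -1.85 for SOX10 (0.024), -5.02 for FOXD3 (0.0011), 3.31 for LEF1 (0.043), 3.87 for IRF4 (0.019) and -2.55 for TFEB (0.0040). Among signals and receptors, it was -2.43 for HGF (0.0025), -2.81 for ADAMTS20 (0.00020), -2.01 for ERBB3 (0.0061) and 0.83 for FZD4 (0.033). The keratinocyte genes DSP (6.51, adjusted p = 0.036) and DSG3 (7.66, adjusted p = 0.032) differed as well. However, limma-voom called 0 of the 18 keratinocyte genes, and so did the fit with no low-count filter. The median difference of that list was 5.29. It was 0.90 without the skin-rich KO E62 replicate 1 and 6.26 without the skin-poor replicate 2. DSG3 had 3 counts in the WT E62 group, so its fitted value is no bound.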

How the results depend on the processing

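With 2 libraries per group, leaving out 1 library ended most calls, and TYR, MLANA and TYRP1 rest on few counts. The fit as reported called 3, 2, 0, 1 and 0 of the 8 genes (KO against WT at E41 and at E62, the difference, and E62 against E41 in WT and in KO). With the keratinocyte covariate, chosen after seeing the data, it was 5, 1, 0, 0 and 0. DESeq2 called 5 at E62, 3 between stages in WT and 1 in KO, limma-voom 1, 0 and 2. Calls over all genes are not given here for DESeq2 and limma-voom, nor for the covariate at E41 and E62. Those counts thus have no background. Only the groups compared gave 2 in WT, with TYR and MLANA filtered out. Leaving out each library gave 0 to 4, 0 to 4, 0 to 1, 0 to 4 and 0 to 2. Calls over all genes then ran from 3927 to 6720, 5816 to 8131, 2499 to 4282, 4491 to 6885 and 1906 to 5022, and the covariate gave 1205 between stages in WT and 3171 in KO, against 6782 and 5126. Over the 40 results of single genes, 587 values kept direction and side of the threshold, 22 lost the call, 27 gained it and 32 turned sign. The cause was not tested.

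These results of single genes turned sign, with ranges over the libraries left out. KIT ran from -0.0058 to 0.137 at E41, from -0.117 to 0.223 at E62 and from -0.156 to 0.177 in the difference, and was -0.0053 at E41 with only the groups compared and -0.0236 in the difference with thinned counts. MLANA at E41 ran from -0.306 to 3.19. TYR ran from -2.76 to 7.67 in the difference, from -6.89 to 3.53 between stages in WT and from -4.36 to 1.71 in KO. With the covariate TYR was -0.694 at E62, -1.67 in the difference and 3.36 between stages in WT, and limma-voom gave -1.09 in KO. The MITF difference ran from -0.186 to 0.0807 and was 0.0086 with DESeq2, 0.012 with relative log expression and 0.025 with thinned counts. TYRP1 between stages in WT ran from -0.75 to 0.668 and was 0.12 thinned and 0.40 with the covariate. EDNRB between stages ran from -0.374 to 0.121 in KO and was -0.094 with the covariate in WT.

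With library size alone the median of all genes moved from 0.089 to 0.378 at E41 and from 0.060 to 0.364 at E62, the share of higher calls from 47.1% to 73.6% and from 44.5% to 69.4%, and EDNRB passed at E62 (adjusted p = 0.026). Same-numbered libraries did not deviate together (correlations -0.25 to 0.0972), so the numbers do not pair them. The replicate block left the count of melanocyte genes called at 3, 2, 0, 1 and 0, and gave 6114, 7512, 3851, 6109 and 4435 calls over all genes.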
